A study of Drosophila melanogaster with 4 samples.

Results

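The genes of the mitochondrial genome were taken as the rows of the deposited expression table whose symbol starts with mt:, which gave 37 genes of 17490. They comprise 13 protein-coding genes, 2 rRNA genes and 22 tRNA genes. All 37 were listed at exactly 0 FPKM in all 4 libraries. FPKM are fragments counted on a gene, relative to its length in kilobases and to a scaling factor of its library. The 148 values of the group thus hold no level, no order and no difference between soma and germline. The sections that follow give this listing by gene class and position, and set it beside genes of the same length, class or protein complex encoded in the nucleus.

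The libraries came from Drosophila ovaries by translating ribosome affinity purification (TRAP), in which a GFP-tagged protein of the cytosolic ribosome is pulled down together with the mRNAs under translation. In 2 soma libraries (genotype tj:gal4, UAS RPL10-GFP) the tag was driven in the somatic lineage, and in 2 germline libraries (genotype Nos:Gal4Vp16, UAS:RPL10-GFP) it was driven in the germ cells. The UAS transgene is common to both groups, so the groups differ in driver and stock as well as in tissue, and these cannot be told apart. The study's methods describe ovaries pooled from many females of each genotype, without saying how they were divided between libraries. All 4 are anti-GFP immunoprecipitates, and no input or untagged library was analysed here.

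Outside rRNA, 16675983 and 615390 reads were recovered from the FPKM of the soma replicates, and 1164462 and 1283288 from those of the germline replicates. Nuclear rRNA genes and rRNA pseudogenes, taken by the letters rRNA in the symbol, held 6.34% of the recovered reads in soma replicate 1. They held 56.1% to 74.7% in the other 3 libraries. Soma replicate 1 therefore stood apart in depth and in rRNA. Of 10 follicle cell markers, 9 were higher in the soma at an adjusted p under 0.05 with limma, against 8.64% of all genes tested. Their median log2 ratio of soma to germline was 3.57. Of 9 germ cell markers, 3 were higher in the germline, against 3.59% of all genes tested. Their median log2 ratio was -1.47. All markers of both lists were above 0 in all 4 libraries. The germ cell markers summed to 151 and 126 FPKM in the soma libraries, and to 313 and 384 FPKM in the germline libraries. How they came into the soma pull-downs was not tested. Markers of the muscle sheath, whose cells are rich in mitochondria, were low and summed to 1.89 to 22.2 FPKM over 8 genes in a library.

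Mitochondria keep a small circular genome, which is transcribed inside the organelle as long precursors. The mRNAs are cut out at the tRNAs that lie between them, receive a poly(A) tail and are translated by mitochondrial ribosomes, whose 2 rRNAs come from the same genome. The encoded proteins are core subunits of respiratory complexes I, III and IV and of the ATP synthase (complex V), and the other subunits of these complexes are made in the cytosol from nuclear genes. Mitochondrial mRNAs are therefore no substrate of the tagged ribosome, and in a pull-down of cytosolic ribosomes they would count as carried-over RNA. The ovary is known for its large stock of maternal mitochondria.

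In the BDGP6.54 annotation, which has dm6 coordinates like the build in the submitters' processing notes, the mitochondrial genome carries 38 annotated genes on bases 1 to 19524. The table lists 37 of them, which end at base 14916. The gene missing from the list is mt:ori, the annotated origin of replication. Conversely, every row that the annotation places on this genome is among the 37. The genes cover 14726 bases, with 23 genes on the plus strand and 14 on the minus strand.

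The plus strand carries 9 of the 13 protein-coding genes. In order, these are mt:ND2 (bases 240 to 1263), mt:CoI (1474 to 3009), mt:CoII (3083 to 3767), mt:ATPase8 (3907 to 4068), mt:ATPase6 (4062 to 4736), mt:CoIII (4736 to 5524), mt:ND3 (5608 to 5961), mt:ND6 (9971 to 10495) and mt:Cyt-b (10499 to 11635). The minus strand carries mt:ND5 (6409 to 8125), mt:ND4 (8207 to 9545), mt:ND4L (9545 to 9835) and mt:ND1 (11721 to 12659), and both rRNA genes, mt:lrRNA (12735 to 14058) and mt:srRNA (14131 to 14916). The genes of both strands were at 0, and no gene between base 1 and base 14916 had a value above 0 in any library.

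The mitochondrial genome was the only chromosome on which no listed gene had a value. On 2L, 2R, 3L, 3R and X, 31.8% to 43.7% of the genes were at 0 in all 4 libraries, and on chromosome 4 the share was 15.5%. On the Y chromosome, which females lack, 65 of 71 genes (91.5%) were at 0, and the other 6 had a value in at least 1 library. Across the whole table, 6972 genes (39.9%) were at 0 in all 4 libraries.

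**Figure D1:**
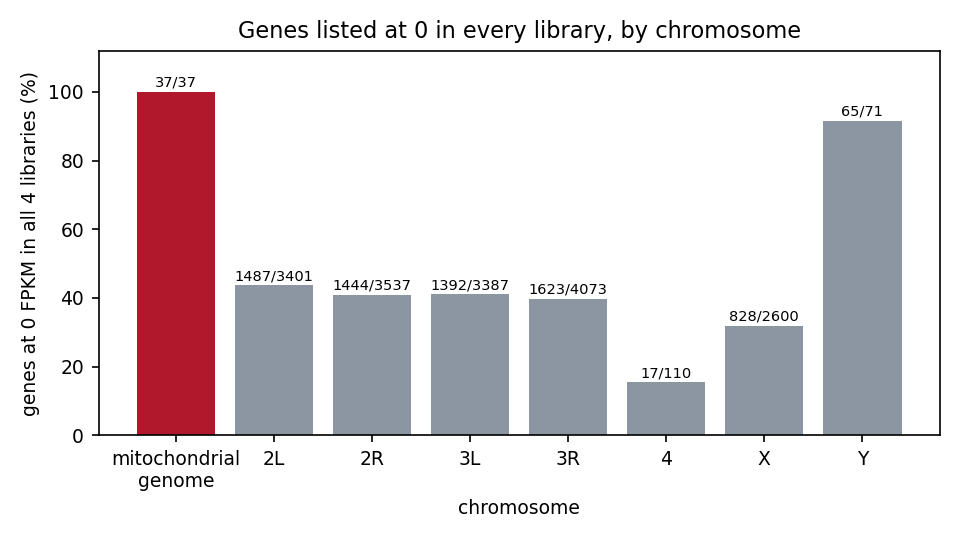
Share of genes at 0 FPKM in all 4 libraries (y axis, percent) for each chromosome of the annotation (x axis), with the number of genes at 0 over the number listed above each bar. The red bar of the mitochondrial genome stands at 37 of 37, above the Y chromosome with 65 of 71 and all other chromosomes.

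Among the members, the protein-coding genes range from mt:ATPase8, of 162 bases, to mt:ND5, of 1717 bases. They were at 0 in 52 of 52 values. Of the 6798 nuclear protein-coding genes whose exons have a summed length in this range, 3028 (44.5%) were at 0 in all 4 libraries. Longer genes were at 0 less often in this count. Of the genes of 162 to under 500 bases, the class of mt:ATPase8, mt:ND3 and mt:ND4L, 68.0% were at 0. Of those of 1000 to 1717 bases, the class of mt:CoI, mt:ND5, mt:ND4, mt:Cyt-b and mt:ND2, 34.5% were at 0.

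The steps between FPKM values give the worth of a single read. On a gene as long as mt:CoI, the gene of the catalytic subunit of cytochrome c oxidase, 1 read was worth 0.0152 FPKM in soma replicate 1 and 0.528 FPKM in soma replicate 2. In the germline libraries it was worth 0.222 and 0.18 FPKM. For mt:ATPase8, the shortest coding gene, it was worth 0.144 to 5.01 FPKM. Whether the 0 of a mitochondrial gene stands for no read or for a value that was not estimated cannot be read from the table. No upper limit on the level of these transcripts is therefore drawn from the 0 values.

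The rRNA genes mt:lrRNA and mt:srRNA encode the RNAs of the large and small subunit of the mitochondrial ribosome, and their 8 values were all 0. On the nuclear chromosomes, 86 of 99 annotated rRNA genes had a value above 0 in at least 1 library. Nearly all of these are copies of the 5S gene, and reads shared between near-identical copies make the value of a single copy uncertain. A wider set, the 117 nuclear genes with rRNA in their symbol, includes rRNA pseudogenes. Summed over this set, the level was 16464 FPKM in soma replicate 1 and 779695 FPKM in soma replicate 2. It was 426470 and 240587 FPKM in the germline replicates. Much of it lay on pseudogenes. 28SrRNA-Psi:CR45859 had 4916 and 301806 FPKM in the soma replicates, and 18SrRNA-Psi:CR41602 had 3646 and 226886 FPKM. The 2 mitochondrial rRNAs stayed at 0 in the library with the least rRNA and in the 3 libraries with the most.

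The 22 mitochondrial tRNA genes, of 62 to 72 bases, read the codons of the mitochondrial mRNAs and mark the sites where the precursor is cut. Their 88 values were all 0. Of the nuclear tRNA genes, 275 of 290 (94.8%) were also at 0 in all 4 libraries, so the listing of the tRNA class differs little from that of its nuclear counterpart. Of the 15 nuclear tRNA genes with a value, 9 were above 0 in soma replicate 1 and 1 to 3 in each of the other libraries. With all 22 genes tied at 0, no mitochondrial tRNA stood above the others.

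**Figure D2:**
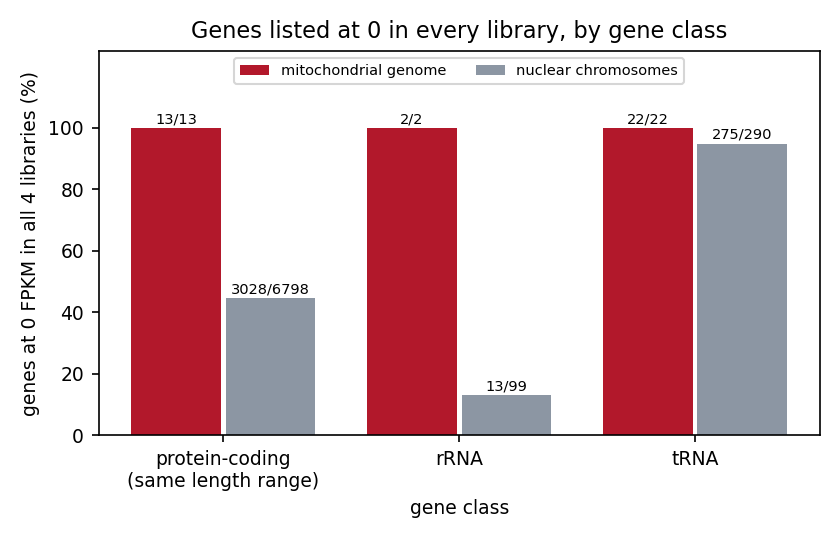
Share of genes at 0 FPKM in all 4 libraries (y axis, percent) for protein-coding, rRNA and tRNA genes (x axis) of the mitochondrial genome (red) and of the nuclear chromosomes (grey), the nuclear protein-coding genes being those in the length range of the mitochondrial ones. The gap is widest for rRNA (2 of 2 against 13 of 99) and smallest for tRNA (22 of 22 against 275 of 290). Of the 99 nuclear rRNA genes, 96 are copies of the 5S gene, an RNA of the cytosolic ribosome that was pulled down. The 2 rRNA classes are therefore not alike.

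Some nuclear RNAs that no ribosome translates had values in these libraries, while many did not. Of the annotated nuclear ncRNA genes, 2038 of 2574 (79.2%) were at 0 in all 4 libraries, and of the snoRNA genes, which guide the modification of rRNA, 121 of 258 (46.9%). The RNA of the signal recognition particle, 7SLRNA:CR32864, had 1055 and 1495 FPKM in the soma libraries and 995 and 769 FPKM in the germline libraries. RNaseMRP:RNA, the RNA of a ribonuclease that processes rRNA, had 211, 465, 281 and 199 FPKM in the same order. Of the 32 genes named as small nuclear RNAs, which work in the spliceosome and in transcription, 26 were above 0 in at least 1 library, and snRNA:7SK had 190, 343, 327 and 196 FPKM. The mitochondrial transcripts thus were listed at 0 where 7SLRNA:CR32864, RNaseMRP:RNA and snRNA:7SK had values in all 4 libraries. Of the 32 small nuclear RNA genes, 6 were also at 0 in all 4 libraries. How the 3 named RNAs came into the pull-downs was not tested, so they are no measure of carried-over RNA.

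Overlap with other genes goes with a listing at 0 elsewhere in the table. Of the 354 nuclear protein-coding genes whose exon bases all lie in exons of another listed gene on either strand, 350 (98.9%) were at 0 in all 4 libraries. Of the 9279 that share no exon base, 34.9% were at 0. Of the 37 mitochondrial genes, 30 overlap no other member and 7 overlap another in part, and 8 of the 13 protein-coding genes are among the 30. The longest overlap, 8 bases, is between mt:tRNA:Trp-TCA and mt:tRNA:Cys-GCA, which lie on opposite strands. The overlap of mt:ATPase8 with mt:ATPase6 has 7 bases, and those of mt:ATPase6 with mt:CoIII and of mt:ND4 with mt:ND4L have 1 base each. Among the protein-coding genes, the largest shared part was 4.32% of mt:ATPase8. The coding genes without overlap are mt:CoI, mt:CoII, mt:Cyt-b, mt:ND1, mt:ND2, mt:ND3, mt:ND5 and mt:ND6. The part of overlap in the listing of the mitochondrial genes at 0 was not tested.

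Soma and germline were compared with limma on log2(FPKM + 0.1), keeping the 8823 genes whose mean reached 0.1 FPKM. Of the genes tested, 762 (8.64%) were higher in the soma at a Benjamini-Hochberg adjusted p under 0.05 and 317 (3.59%) higher in the germline. The study's cut-offs were a fold change over 5 and a p under 0.05, taken here as unadjusted. Applied to the limma fit rather than to the study's own test, they gave 9.41% higher in the soma and 1.08% in the germline. None of the 37 mitochondrial genes entered the test, since all had a mean of 0. The 0 calls among them are a count over 0 genes tested with limma and with limma-voom, with no p-value of any kind. They do not show that mitochondrial transcripts are equal in both groups.

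Each of the 4 complexes that hold mitochondrially encoded subunits also has subunits encoded in the nucleus, and these had values. In complex I, which takes electrons from NADH, the 7 membrane subunits of the mitochondrial genome (mt:ND1, mt:ND2, mt:ND3, mt:ND4, mt:ND4L, mt:ND5 and mt:ND6) were at 0. All 9 nuclear subunits examined were above 0 in all 4 libraries, and the most abundant of them, ND-49, had 59.2 and 58.5 FPKM in the soma and 71.8 and 53.1 FPKM in the germline. ND-24 and ND-42 followed, with 34.6 to 67.2 FPKM. The soma and germline values of ND-49 overlapped, and limma gave a log2 soma to germline ratio of -0.07 with a standard error of 0.27 (adjusted p = 0.89).

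In complex III, mt:Cyt-b, which encodes the cytochrome b subunit, was at 0, while the nuclear UQCR-C1 had 54.5 and 37.3 FPKM in the soma and 71.7 and 44.8 FPKM in the germline. Of the 6 nuclear subunits examined, 5 were above 0 in all 4 libraries, among them Cyt-c1 and UQCR-C2 at 22.6 to 49.2 FPKM. The sixth, UQCR-14, was at 0 in all 4 libraries like the mitochondrial genes. It lies on chromosome X from 16286288 to 16286988, and its exon bases lie wholly within exons of other listed genes. The part of this overlap in its 0 values was not tested.

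The 3 mitochondrial subunits of complex IV, the cytochrome c oxidase, are mt:CoI, which holds haem and copper, mt:CoII, which holds copper, and mt:CoIII. All 3 were at 0 in libraries in which levy, a nuclear subunit of the same enzyme, had 189 and 165 FPKM (soma) and 114 and 106 FPKM (germline). COX5A and COX6B had 59.1 FPKM or more in each library, and all 8 nuclear subunits examined were above 0 in every library. Both soma values of levy were above both germline values, at a log2 ratio of 0.69 with a standard error of 0.28 (limma, adjusted p = 0.18).

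The ATP synthase holds mt:ATPase6, part of its proton channel, and mt:ATPase8, both at 0. ATPsynbeta, the catalytic subunit, was the most abundant nuclear gene of the 4 complexes examined, with 393 and 522 FPKM in the soma and 795 and 683 FPKM in the germline. Both germline values were the higher ones, but with limma the log2 ratio of soma to germline, -0.70 with a standard error of 0.47, did not pass (adjusted p = 0.39). ATPsynC and blw had 91.5 to 433 FPKM, and all 11 nuclear subunits examined were above 0 in all 4 libraries.

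**Figure D3:**
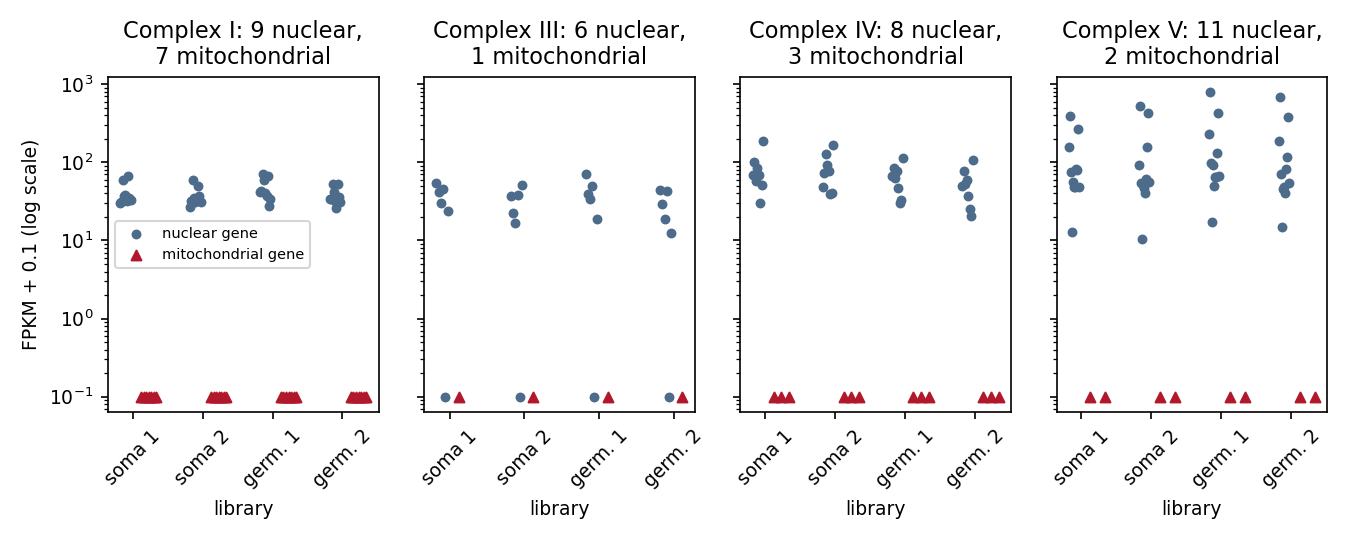
FPKM + 0.1 on a log scale (y axis) of the nuclear (blue dots) and mitochondrial (red triangles) subunit genes of complexes I, III, IV and V in the 4 libraries (x axis, soma and germline replicates 1 and 2). All 13 mitochondrial genes lie on the floor of the axis, which stands for 0 FPKM, and 33 of the 34 nuclear genes lie above 10 FPKM, UQCR-14 being at 0.

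Over the 4 complexes, 33 of the 34 nuclear genes were tested, and with limma none was called at an adjusted p under 0.05, 4 had an unadjusted p under 0.05, and limma-voom called 0. Over all genes tested, limma called 8.64% higher in the soma and 3.59% higher in the germline, and 2450 (27.8%) had an unadjusted p under 0.05. Limma-voom called 1405 genes in all. By complex, the median log2 fold change was -0.06 for complex I, -0.15 for complex III, 0.46 for complex IV and -0.25 for complex V. Over all 33 genes the median was -0.07, against 0.04 over all genes tested. Its sign rested on single libraries. It was -0.20 without soma replicate 1 and -0.24 without germline replicate 2, but 0.01 without soma replicate 2 and 0.07 without germline replicate 1. The summed levels of the nuclear subunits, 2481 to 3197 FPKM per library, stand against a summed level of 0 for the mitochondrial subunits of the same enzymes in every library, so no ratio of the 2 genomes can be formed.

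The nuclear genes that serve the mitochondrial genome were measured as well. Of 17 genes for its replication, transcription and RNA processing, 13 were above 0 in all 4 libraries. TFAM, which packages mitochondrial DNA and starts its transcription, had 12.1 and 13.7 FPKM in the soma and 27.9 and 17.8 FPKM in the germline. The RNA polymerase gene mtRNApol had 7.64, 7.22, 8.73 and 10.2 FPKM in the same order. scu, of the complex that cuts mitochondrial tRNAs in mammals, and bsf, a binding protein of mitochondrial RNA, had 21.5 to 65.4 FPKM. Of the 15 genes tested, 1 was called with limma and 1 with limma-voom, and 2 had an unadjusted p under 0.05 with limma. Over all genes tested, limma called 8.64% higher in the soma and 3.59% higher in the germline, and 27.8% had an unadjusted p under 0.05. The median log2 fold change of the 15 genes was -0.63, against 0.04 over all genes tested. The median of this list was -0.30 without soma replicate 2 and -0.34 with limma-voom. The gene called was mtSSB, the single-strand binding protein of mitochondrial DNA replication, with 0.689 and 0 FPKM in the soma and 5.33 and 7.67 FPKM in the germline.

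For mtSSB the log2 ratio of soma to germline was -4.53 with a standard error of 1.11 (limma, adjusted p = 0.044), and it was -2.51 with a pseudocount of 1 FPKM. The gene rested on 17 and 0 reads in the soma and on 9 and 16 reads in the germline, it shares 71.5% of its exon bases with other genes, and the call was lost without any 1 of the 4 libraries (adjusted p = 0.085 to 0.39). mtTFB1 and SLIRP1, a factor and an RNA-binding protein of the same pathway, were at 0 in all 4 libraries and lie with all of their exon bases within other genes. Of the 73 proteins named as parts of the mitochondrial ribosome, 72 were tested. With limma, 9 had an unadjusted p under 0.05, against 27.8% of all genes tested. None was called with limma, against 8.64% of all genes tested higher in the soma and 3.59% higher in the germline. Limma-voom called 0 of them, against 1405 genes in all. The RNA partners of these proteins, mt:lrRNA and mt:srRNA, were at 0. The only 1 of the 73 at 0 in all 4 libraries was mRpL53, whose exon bases are also all shared. The part of overlap in the 0 values of mRpL53, mtTFB1 and SLIRP1 was not tested.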

How the data were processed

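Per the labels, the columns are FPKM of RNA from 2 soma and 2 germline TRAP libraries, deposited by the authors with a comma as the decimal mark. No value was below 0. The submitters' processing notes name cutadapt, FastQC, HISAT2 and DESeq2 and the build dm6, without versions; the annotation, the strand setting and the treatment of mitochondrial reads are not given in the sources used here. The study calls the replicates biological, without saying whether they were separate dissections, so p-values measure the spread between these libraries, which may be technical.

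Members were matched by symbol, and 17216 of 17490 identifiers matched Ensembl release 115 (BDGP6.54), from which position, class and exon length were taken. FPKM times exon length gave whole reads, within 0.03 reads, for 10088 of 10518 genes above 0 (95.9%). Members and lists were chosen with earlier results of these data known. The complexes and the genes that serve the mitochondrial genome were named by their 3 most abundant genes and by genes called. Outside this rule, mtRNApol and the genes at 0 in all libraries, UQCR-14, mtTFB1 and SLIRP1, were named too. Of the mitochondrial ribosomal protein genes only mRpL53, at 0, was named. A tie at 0 left no tRNA to name. Of the haemocyte markers, 4 were listed and 0 tested, and of 3 fat body markers 2 were at 0 in all 4 libraries.

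The test was limma 3.58.1 in R 4.3.3 (lmFit, eBayes with a trend). It was also run on simulated counts with the same dispersion in all libraries, which does not show how it behaves on these libraries. Other steps used Python 3.11.15, pandas 2.3.3, numpy 2.4.6 and matplotlib 3.10.9. An exact 2-sided permutation test of 1 gene could reach no p under 0.333 here. The alternatives were other pseudocounts, filters and scalings, no trend, a replicate block, limma-voom on recovered reads and each library left out. Positions count from 1.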

Additional observations from a re-analysis of the deposited data

How the results depend on the processing

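No mitochondrial gene entered the test under any of the 14 settings, including all genes above 0 and limma-voom on recovered reads, so the 0 calls among them say nothing about stability. Scaling to the mitochondrial mRNAs and a median fold change of these mRNAs could not be computed, since their values are 0. Median-ratio scaling was close to the main setting itself. The log2 ratio of ATPsynC was -0.251 in both, and that of mtSSB was -4.53 in the main setting and -4.52 with the scaling. Over all genes, limma called 1079 at an adjusted p under 0.05, 791 to 1136 with other pseudocounts, filters or scalings and 1405 with limma-voom on recovered reads. Without a trend it called 488, of which 37 were higher in the germline against 317 with the trend. With 1 library left out the count ran from 0 to 554, and it was 450 without soma replicate 1, 554 without soma replicate 2 and 0 without either germline replicate, where the lone library is assumed to vary like the other group. The replicate block gave 1549 calls, 581 of them higher in the germline; the correlation of same-numbered deviations was -0.07 across 8823 genes and the labels do not pair the numbers, so the libraries share only a number. With the block, 1 of the nuclear subunit genes, 6 of the mitochondrial ribosomal protein genes and 3 of the genes serving the mitochondrial genome were called, against 0, 0 and 1 without it. The call of mtSSB was also lost with a pseudocount of 0.01 FPKM (adjusted p = 0.12), with all genes above 0 (0.088) and without a trend (0.12), and its adjusted p over all settings was 0.0031 to 0.39. The causes were not tested. How reads of overlapping genes were assigned is not given in the sources used here.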

Other observations

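The Y chromosome, which females lack, had 6 of its 71 listed genes above 0. Soma replicate 1 had a value for all 6 of them, soma replicate 2 for 4, germline replicate 1 for 2 and germline replicate 2 for 4. Every library thus held a value for some Y-linked gene and none for a mitochondrial gene.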
